A study of Mus musculus with 18 samples.

Results

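The 6 genes described here encode the surface proteins by which the cells of this study were separated with a flow cytometer: *Ngfr* (NGFR), *Epcam* (EpCAM), *Itgb4* (CD104), *Cd24a* (CD24), *Ptprc* (CD45) and *Pecam1* (CD31). They were chosen by name from the sorting gates, out of 27179 genes in the deposited tables, and all 6 passed the filter on low counts that left 17989 genes for testing. RNA sequencing covered 18 libraries from 6 sorted populations of C57BL/6 mice, all untreated males of 8 to 12 weeks. From the tracheas of mice 1, 2 and 3 came NGFR+ basal stem cells (BSCs) and NGFR- non-basal cells. From the lungs of mice 4, 5 and 6 came 4 populations: EpCAM+ CD104+ CD24hi airway cells, labelled as enriched in ciliated cells; EpCAM+ CD104+ CD24lo airway cells, labelled as enriched in club cells; EpCAM-negative cells, labelled non-epithelial; and EpCAM+ CD104lo alveolar cells. Each population thus had 3 libraries, each from another mouse. Trachea and lung never came from the same animal by the labels, although the paper gives a paired t test between BSCs and alveolar cells. By the methods trachea and lung were also dissociated differently. Tracheal epithelium was peeled off after dispase and put in trypsin, whereas lungs were minced and digested with collagenase. Organ, animal, dissociation and gate therefore cannot be told apart in any comparison between them, and read depth differed as well. The methods state exclusion of CD45+ and CD31+ cells for the alveolar gate only, and state no such step for the trachea.

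NGFR, the p75 neurotrophin receptor, binds neurotrophins and is a long-used surface marker of tracheal basal cells. EpCAM is a homophilic adhesion protein of most epithelia, and CD104 is the integrin beta 4 chain, which pairs with integrin alpha 6 and anchors basal cells to the basement membrane at hemidesmosomes. CD24 is a small, heavily glycosylated protein held in the membrane by a lipid anchor, CD45 is the receptor tyrosine phosphatase carried by nearly all nucleated blood cells, and CD31 is an adhesion protein of endothelial junctions that platelets and some leukocytes also carry. A sort selects protein on the cell surface, whereas the counts here measure RNA. Where a protein set the gate between 2 populations, the RNA of its gene in that comparison checks the sort and is not a finding. The other genes in the same comparison were not selected.

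Counted reads per library ranged from 29317215 to 32993621 in the trachea and from 9811503 to 13208897 in the lung, so that low genes were measured more precisely in the trachea. The tracheal counts exceed the number of reads per mouse sample that the methods state. Levels below are in RPKM, that is, deposited counts divided by gene length and by library size, with edgeR's TMM factors applied to the library sizes. Fold changes and adjusted p-values are from the quasi-likelihood test of edgeR over all 17989 genes, and a gene is called where its Benjamini-Hochberg adjusted p is under 0.05. Defining genes of the labelled cell types stood in the populations named for them: *Krt5*, a basal cell keratin, was at 1477 to 1571 RPKM in BSCs, *Foxj1*, a ciliated cell regulator, at 588 to 698 in the CD24hi gate, *Scgb1a1*, the club cell secretoglobin, at 471751 to 665629 in the CD24lo gate, and *Sftpc*, the type 2 surfactant protein C, at 149915 to 168618 in the alveolar gate. These genes were not confined to the populations named for them, and the purity of the gates was not tested. *Krt5* was at 103 to 130 RPKM in non-basal cells, and *Scgb1a1* at 69135 to 90690 RPKM in the CD24hi gate. *Ager*, a type 1 alveolar gene, was at 1135 to 1148 RPKM in the alveolar gate, its highest level. The other 3 type 1 markers examined had their highest means elsewhere: *Hopx* averaged 39.0 RPKM in alveolar and 154.8 RPKM in CD24hi cells, *Aqp5* 353.7 RPKM in alveolar and 531 RPKM in non-basal cells, and *Rtkn2* 3.04 RPKM in alveolar and 3.87 RPKM in EpCAM-negative cells. In bulk samples such as these, fewer cells of a type and less RNA per cell cannot be told apart.

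**Figure D1:**
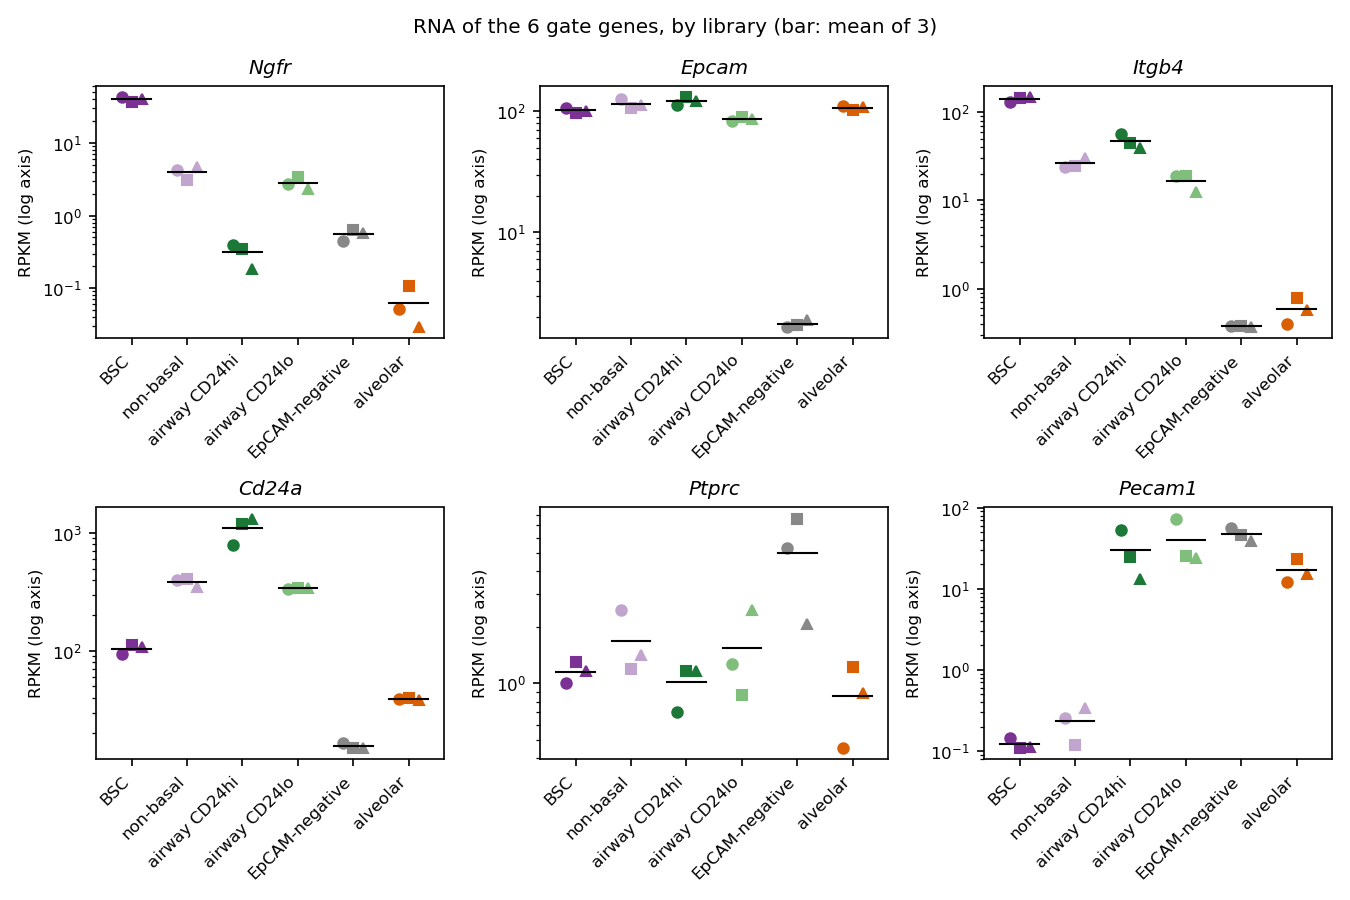
RPKM (log axis, a separate scale in each panel) of the 6 gate genes in the 18 libraries, with 1 point per mouse (circle, square and triangle for the lowest, middle and highest mouse number of the organ) and a bar at the mean of 3. On this TMM-based scale *Epcam* was level across 5 populations (in TPM it was not) and low in the EpCAM-negative gate, whereas the highest and lowest means differed 628-fold for *Ngfr*, 377-fold for *Itgb4*, 71.2-fold for *Cd24a* and 386-fold for *Pecam1*.

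*Ngfr* (Entrez 18053) lies on the minus strand of chr11:95568818-95587698 of the mouse genome (GRCm38, the build named mm10). Its promoter window, 250 bases before to 50 bases after the start in RefSeq (GRCm38.p6, chr11:95587649-95587948, minus strand), is shown because NGFR is the protein that separated the tracheal cells. GC boxes, read as GGGCGG on either strand, are in capitals:
Ngfr: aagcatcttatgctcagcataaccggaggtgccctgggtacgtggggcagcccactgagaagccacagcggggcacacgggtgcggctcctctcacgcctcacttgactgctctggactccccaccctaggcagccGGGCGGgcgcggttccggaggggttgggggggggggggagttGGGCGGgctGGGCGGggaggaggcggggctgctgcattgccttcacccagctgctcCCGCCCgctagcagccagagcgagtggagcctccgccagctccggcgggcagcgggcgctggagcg
The window held 4 of them and was 71.7% G or C, which put it above 92.6% of 32851 RefSeq windows of the same length. A GC box was present in 35.7% of all windows.

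*Ngfr* RNA followed the tracheal gate. It was at 42.3, 36.9 and 39.7 RPKM in the BSCs of mice 1, 2 and 3 and at 4.18, 3.12 and 4.68 RPKM in non-basal cells of the same mice, so that the non-basal mean was 10.1% of the BSC mean. The groups did not overlap, and the log2 fold change was 3.31 (SE 0.17, adjusted p = 6.63e-11). This is the gate itself and checks the sort. None of the lung cells were sorted on NGFR, yet *Ngfr* differed among the lung gates. The CD24lo airway libraries had 2.73, 3.40 and 2.30 RPKM and the CD24hi airway libraries 0.398, 0.348 and 0.185 RPKM. All 3 CD24lo libraries were above all 3 CD24hi libraries, the difference was -3.17 on the log2 scale for CD24hi minus CD24lo (SE 0.25, adjusted p = 1.09e-08), and the mean was 9.05-fold higher in CD24lo cells. EpCAM-negative cells had 0.447, 0.629 and 0.581 RPKM from 19 to 26 reads a library. Their difference from the CD24hi gate was 0.82 (SE 0.31, adjusted p = 0.0254), a call that was lost when CD24hi replicate 3 (0.56, adjusted p = 0.125), EpCAM-negative replicate 2 (0.73, adjusted p = 0.0778) or EpCAM-negative replicate 3 (0.75, adjusted p = 0.0736) was left out, and also with library size alone (0.69, adjusted p = 0.0551), with limma voom (0.86, adjusted p = 0.0871) and in a fit of those populations alone (0.71, adjusted p = 0.0825). Alveolar libraries held 2, 4 and 1 reads of *Ngfr*. Scaled for library size, BSCs carried 620 times the alveolar reads of the gene (95% interval 301 to 1542, counting error only). The means thus ran from BSCs through non-basal, CD24lo, EpCAM-negative and CD24hi to alveolar cells. Non-basal and CD24lo libraries, neighbours from different organs, overlapped. Their difference (0.50, SE 0.17, adjusted p = 0.0224) was not called without non-basal replicate 1 (0.47, adjusted p = 0.0582) or 3 (0.37, adjusted p = 0.11), without CD24lo replicate 1 (0.48, adjusted p = 0.0598) or 3 (0.38, adjusted p = 0.106), or in a fit of both populations alone (adjusted p = 0.0655). CD24hi cells were above alveolar cells (2.25, SE 0.52, adjusted p = 0.00101).

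Basal cell genes differed in the same direction as *Ngfr* between both airway gates. The means of all 4 basal markers were lower in EpCAM-negative than in CD24hi cells, but 2 were called and 2 were not (72.2% of all tested genes called). *Krt15* was at 0.474 against 8.97 RPKM, whereas *Trp63* overlapped, at 0.629 to 0.790 against 0.473 to 1.35 RPKM. *Ngfr* was higher in EpCAM-negative cells there, by the call given above that several alternatives lost. *Krt5* averaged 42.8 RPKM in CD24lo cells, with a lowest library of 31.9, and was at 3.41 to 3.73 RPKM in CD24hi cells (log2 fold change -3.58 for CD24hi minus CD24lo, SE 0.26, adjusted p = 4.29e-09). *Trp63*, the basal cell transcription factor, was at 6.78, 11.9 and 8.57 RPKM in CD24lo cells and at 0.473 to 1.35 RPKM in CD24hi cells. The ratio of *Ngfr* to *Trp63* RPKM was 0.411 on average in BSCs, 0.340 in non-basal cells and 0.319 in CD24lo airway cells, and it was 0.771 in EpCAM-negative cells, where both genes were under 1 RPKM. In EpCAM-negative cells all 4 basal markers (*Krt5*, *Krt14*, *Trp63* and *Krt15*) were under 1 RPKM, and *Ngfr* exceeded *Krt5* by 2.86-fold there. The Schwann cell gene *Sox10* averaged 0.019 RPKM in that gate, whereas the fibroblast collagen *Col1a2* averaged 1175 RPKM. The part of basal or stromal cells in these *Ngfr* reads was not tested. These ratios were chosen after the gene levels had been seen. Over the 18 libraries, the genes whose log2 values were most like those of *Ngfr*, among 10560 genes with a mean CPM (library-scaled count) of at least 10, were *Tmem132a* (r = 0.98), *Cdh3* (r = 0.98), *Trp63* (r = 0.98), *Tns4* (r = 0.97) and *Tnks1bp1* (r = 0.97). The libraries share organ, depth and animals in groups, so these are descriptions.

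NGFR works with neurotrophins as ligands, with receptor kinases of the neurotrophins, and with sortilin-family co-receptors. Of 11 such genes and intracellular partners, BSCs exceeded non-basal cells in 4 and were below them in 3, and the median log2 fold change was -0.13, where that of all genes was -0.017 and 48.2% of all tested genes were called. Between CD24hi and CD24lo cells 3 were higher, 5 lower and 3 not called (median -0.23, all genes -0.061; 55% of all tested genes called). Among ligands, neurotrophin 3 (*Ntf3*) was 18.1 ± 1.91 RPKM in BSCs and 2.94 ± 0.735 in non-basal cells (SD, n = 3; log2 fold change 2.62, SE 0.17, adjusted p = 1.34e-09). *Ntf5* was also higher in BSCs (1.5, SE 0.12, adjusted p = 1.87e-08). Sortilin (*Sort1*), which forms a receptor with NGFR for unprocessed neurotrophins, was lower in BSCs, at 12.9 against 36.8 RPKM (-1.52, SE 0.11, adjusted p = 3.74e-09), while its relative *Sorcs2* was higher, at 25.5 against 6.50 RPKM (1.97, SE 0.11, adjusted p = 2.01e-10). The kinase genes *Ntrk2* and *Ntrk3* averaged at most 0.035 RPKM in BSCs and non-basal cells. In EpCAM-negative lung cells they averaged 7.91 and 8.59 RPKM.

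*Epcam* (Entrez 17075) lies on the plus strand of chr17:87635979-87651127. Its promoter window (RefSeq, GRCm38.p6, chr17:87635729-87636028, plus strand) is shown because *Epcam* RNA was nearly lost in only 1 of the 6 populations. The sequence CAGGTG, read on either strand, is in capitals. It is the E-box form bound by SNAI and ZEB repressors of epithelial genes:
Epcam: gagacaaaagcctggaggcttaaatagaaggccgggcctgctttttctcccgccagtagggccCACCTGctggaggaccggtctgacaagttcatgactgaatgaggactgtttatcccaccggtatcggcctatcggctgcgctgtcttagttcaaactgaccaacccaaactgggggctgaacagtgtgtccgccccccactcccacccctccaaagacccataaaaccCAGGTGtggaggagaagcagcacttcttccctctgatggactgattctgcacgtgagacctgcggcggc
CAGGTG was found 2 times in the window and occurred at least once in 20.2% of the 32851 windows. The match is a description of the letters and was not tested as a site. The motifs were chosen with these sequences in view.

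*Epcam* separated the EpCAM-negative gate from all others and varied little elsewhere. EpCAM-negative libraries had 1.68, 1.72 and 1.88 RPKM, from 43 to 51 reads, and the other 15 libraries ranged from 83.7 to 129.6 RPKM. The EpCAM-negative mean was 1.45% of the highest mean. The evenness among the other 5 populations depends on the scaling. In TPM, which fixes the sum over all genes, the mean of *Epcam* was 287 in BSCs, 183 in non-basal, 264 in CD24hi, 86.2 in CD24lo, 172 in alveolar and 4.47 in EpCAM-negative cells. The gate is the criterion in these comparisons, and the log2 differences were -6.10, -5.61 and -5.92 against CD24hi, CD24lo and alveolar cells. Outside the gate, the 3 CD24hi libraries (113, 129.6 and 121 RPKM) were above the 3 CD24lo libraries (83.7, 89.8 and 85.8 RPKM), by 0.49 on the log2 scale (SE 0.083, adjusted p = 7.93e-05). Alveolar cells (109, 102 and 108 RPKM) were also above CD24lo cells, by 1.23-fold (-0.30 for CD24lo minus alveolar, SE 0.083, adjusted p = 0.00588). CD24hi minus alveolar cells came to 0.18 (SE 0.083, adjusted p = 0.0648), a difference that was called when CD24hi replicate 1 was left out (0.23, adjusted p = 0.0163), with library size alone (0.50, adjusted p = 4.73e-05), with RLE factors (0.21, adjusted p = 0.046), with a stricter count filter (0.19, adjusted p = 0.0481), in DESeq2 (0.21, adjusted p = 0.0241) and in limma voom (0.18, adjusted p = 0.0385). In the trachea, where EpCAM was not part of the sort, BSCs had 107, 96.8 and 100.2 RPKM and non-basal cells 126, 107 and 112 RPKM. The difference was -0.18 (SE 0.083, adjusted p = 0.0763); with the mouse as a block it was -0.19 and called (adjusted p = 0.00156), each mouse having less *Epcam* in its BSCs. It was called as well in limma voom (-0.18, adjusted p = 0.0454) and in a fit of both populations alone (-0.19, adjusted p = 0.0491). When libraries were scaled by size alone the difference was 0.16, which is the reverse, while the median of all genes moved by 0.33.

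The mean *Epcam* levels ran from CD24hi cells through non-basal, alveolar, BSC and CD24lo to EpCAM-negative cells. CD24hi and non-basal cells (-0.075 for non-basal minus CD24hi, adjusted p = 0.436), non-basal and alveolar cells (0.11, adjusted p = 0.261) and BSCs and alveolar cells (-0.075, adjusted p = 0.441) were neighbours that were not called different. These pairs differ in organ as well. The call between BSCs and CD24lo cells (0.23, adjusted p = 0.0232) was lost without BSC replicate 1 (0.19, adjusted p = 0.0902), CD24lo replicate 1 (0.21, adjusted p = 0.0693) or CD24lo replicate 3 (0.21, adjusted p = 0.0649).

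Of 11 membrane partners of EpCAM and proteins that act with it, 10 were lower in EpCAM-negative than in alveolar cells and 1, the sheddase *Adam17*, was higher (0.30, SE 0.096, adjusted p = 0.0102). The median was -2.84, against 0.011 over all genes, and 61.9% of all tested genes were called in that comparison. The claudin *Cldn7*, which binds EpCAM, was 1.93 RPKM in EpCAM-negative and 76.5 RPKM in alveolar cells. Genes most like *Epcam* over the 18 libraries were *St14* (matriptase, a protease that cleaves EpCAM; r = 1.00), *Cdh1* (E-cadherin; r = 0.99), *Kcnj13* (r = 0.99), *Rassf7* (r = 0.99) and *Tmem184a* (r = 0.99). *St14* stood at 37.8 to 44.9 RPKM on average in 5 populations and at 0.783 RPKM in EpCAM-negative cells. *Cdh1* moved more within the epithelium, from 87.5 RPKM in CD24lo to 180.3 RPKM in CD24hi cells (1.04, SE 0.087, adjusted p = 1.9e-08).

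*Itgb4* (Entrez 192897) lies on the plus strand of chr11:115974725-116008412. Another annotated gene, *B230344G16Rik*, shares 7.66% of its exonic bases, and the strand setting of the counting is not given in the sources used here, so a small share of the reads is uncertain. CD104 separated the airway gates from the alveolar gate, and *Itgb4* followed. CD24hi airway cells had 57.0, 45.3 and 39.7 RPKM, CD24lo airway cells 19.0, 18.8 and 12.4 RPKM, and alveolar cells 0.400, 0.790 and 0.573 RPKM. The log2 differences from alveolar cells were 6.33 and 4.84, and they check the sort.

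Among cells not separated by CD104, *Itgb4* still varied widely. BSCs had 132, 143 and 147 RPKM and non-basal cells 24.1, 24.5 and 30.5 RPKM. All 3 BSC libraries were above the non-basal ones, by 5.34-fold (log2 fold change 2.42, SE 0.18, adjusted p = 7.71e-09). Both airway gates were taken as CD104+, yet the CD24hi gate held 2.82 times as much *Itgb4* RNA as the CD24lo gate (1.5, SE 0.18, adjusted p = 1.31e-06), without overlap. EpCAM-negative cells were at 0.377, 0.375 and 0.370 RPKM, from 28 to 30 reads. Their difference from alveolar cells was -0.65 (SE 0.28, adjusted p = 0.0519), and it was called without alveolar replicate 1 (-0.87, adjusted p = 0.0129) and in a fit of both populations alone (-0.67, adjusted p = 0.0459). The order of the means was BSC, CD24hi, non-basal, CD24lo, alveolar and EpCAM-negative. Each neighbour above the alveolar gate differed from the next (adjusted p of 3.21e-07 for BSCs against CD24hi, 0.000353 for non-basal against CD24hi and 0.00467 for non-basal against CD24lo cells), with organ and animal mixed into these 3.

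Integrin beta 4 pairs only with integrin alpha 6, binds laminin outside the cell and plectin inside it. Of 7 genes for these and other hemidesmosomal partners, all 7 were higher in BSCs than in non-basal cells. Their median log2 fold change was 2.13 (all genes -0.017), where 48.2% of all tested genes were called. The alpha chain *Itga6* was 79.9 ± 4.30 RPKM in BSCs and 18.9 ± 1.01 in non-basal cells (2.08, SE 0.090, adjusted p = 1.7e-11). The laminin chains *Lama3* (3.41) and *Lamb3* (2.95) and the hemidesmosomal collagen *Col17a1* (3.58) had larger log2 differences. Between both airway gates of the lung the partners were mixed. CD24hi and CD24lo cells had 13.1 and 12.1 RPKM of *Itga6* (0.12, SE 0.091, adjusted p = 0.265). Of the partners 3 were higher, 3 lower and 1 not called, where 55% of all tested genes were called. *Plec* (0.98), *Cd151* (0.48) and *Lama3* (1.18) were higher in CD24hi cells, and *Lamb3* (-1.83), *Col17a1* (-3.02) and *Dst* (-1.16) were lower. The ratio of *Itgb4* to *Itga6* RPKM was 1.74 to 1.81 in BSCs, 2.94 to 4.76 in CD24hi cells and 0.055 to 0.0995 in alveolar cells. Alveolar cells, with almost no *Itgb4*, had 87.3 ± 1.81 RPKM of *Lamb3*. Of the 7 other integrin beta chains in a fixed list, 4 were higher in BSCs than in non-basal cells and 3 were not called (median 0.59, all genes -0.017), where 48.2% of all tested genes were called; *Itgb8* had the largest of these differences (1.49, SE 0.33, adjusted p = 0.00122). *Itgb1*, the beta chain with the most alpha partners, was 137.7 RPKM in alveolar cells. Genes most like *Itgb4* over the 18 libraries were *BC064078*, *Prom2* and *Ces1b* (each r = 0.99) and *Net1* and *Mst1* (each r = 0.98).

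**Figure D2:**
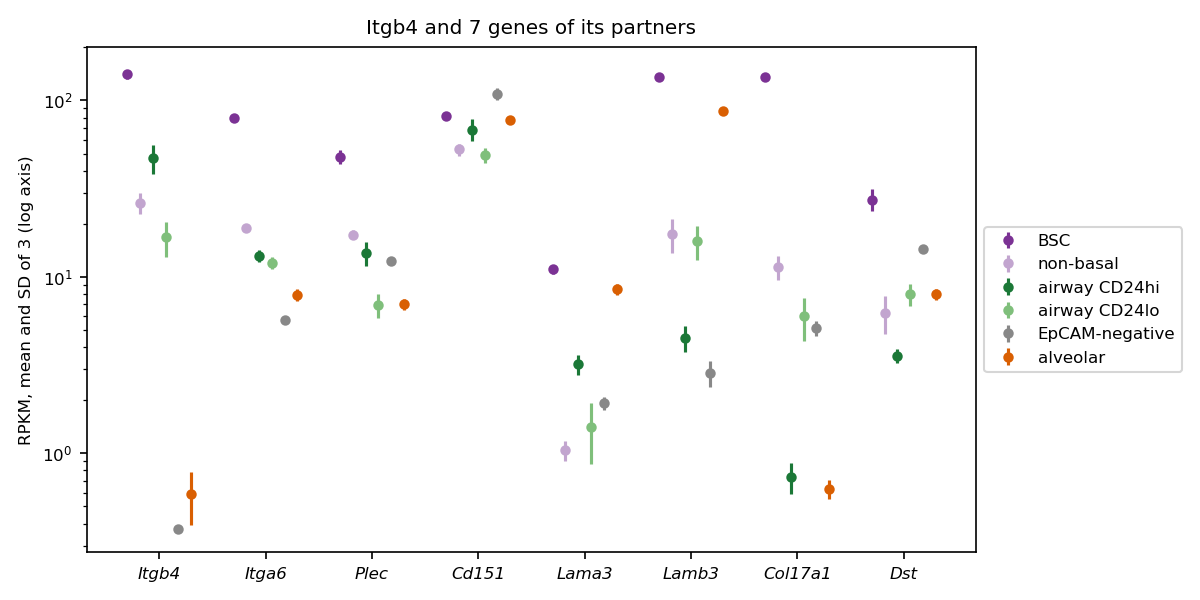
Mean RPKM with SD of 3 libraries (log axis) of *Itgb4* and 7 genes of its partners in the 6 populations, 1 colour each. BSCs have the highest mean of *Itgb4*, *Itga6*, *Plec*, *Lama3*, *Lamb3*, *Col17a1* and *Dst*, and alveolar cells combine *Itgb4* at 0.588 RPKM with *Lamb3* at 87.3 RPKM.

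*Cd24a* (Entrez 12484) lies on the plus strand of chr10:43579169-43584265. A pseudogene, *Gm6212*, matches 218 bases of a *Cd24a* transcript at 95% identity or more, so that reads could be shared there. CD24 set the gate between both airway populations, and *Cd24a* was 794, 1199 and 1317 RPKM in CD24hi cells and 338, 339 and 343 RPKM in CD24lo cells. The CD24hi library of mouse 4 was the lowest of its group and still more than any CD24lo library. The log2 difference was 1.70, which checks the sort. A CD24lo gate was not a gate without CD24 RNA: its mean, 340.2 RPKM, was 30.8% of the CD24hi mean and stood above 99.4% of all tested genes in those cells.

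CD24 was not a criterion between the tracheal populations or between alveolar and EpCAM-negative cells. The airway gates had been cut on CD24, so the sort set 1 side of their comparisons with other cells. Non-basal tracheal cells had 400.4, 411 and 349.8 RPKM and BSCs 93.7, 113 and 108 RPKM. Without overlap, BSCs were lower by 3.70-fold (-1.89, SE 0.14, adjusted p = 9.42e-09). Alveolar libraries lay within a narrow range, at 39.3, 40.0 and 38.6 RPKM, below both airway gates (by 4.81 and 3.11 on the log2 scale, SE 0.16 and 0.15, adjusted p = 1.58e-13 and 1.81e-11). EpCAM-negative cells were lowest, at 15.5 ± 0.859 RPKM (SD, n = 3), by 1.34 below the alveolar cells (SE 0.15, adjusted p = 3.24e-07). Over the 6 populations, only non-basal and CD24lo cells were neighbours not called different (0.19, SE 0.14, adjusted p = 0.275), and they come from different organs. In the trachea *Cd24a* therefore ran against *Itgb4* and against *Ngfr*, whose protein set that gate. Between the lung airway gates the sort fixed the direction of *Cd24a*, and *Itgb4*, which did not separate them, was also higher in CD24hi cells.

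Ciliated cell genes differed in the same direction as *Cd24a* in the trachea and between both airway gates, where the sort fixed the direction of *Cd24a*. *Foxj1* was at 588 to 698 RPKM in CD24hi cells, at 51.5 to 108 RPKM in CD24lo cells, at 31.7 to 53.8 RPKM in non-basal cells and at 4.57 to 6.48 RPKM in BSCs. The sum of 4 ciliated markers was 931 to 993 RPKM in the CD24hi gate and 80.8 to 168 RPKM in the CD24lo gate. The part of ciliated cells in the *Cd24a* level was not tested. Genes most like *Cd24a* over the 18 libraries were *Sec14l3* (r = 0.99) and *Kif19a*, *Acox2*, *Capsl* and *Gipc2* (each r = 0.98). Of 6 genes for known ligands and partners of CD24, the Src-family kinase *Lyn* (0.81, SE 0.10, adjusted p = 1.98e-06) and the adhesion protein *L1cam* (0.55, SE 0.13, adjusted p = 0.00138) were higher in CD24hi than in CD24lo cells and 4 were not called, with a median of 0.26 against -0.061 over all genes. Of all tested genes 55% were called between these gates. *Selp* and *Siglecg*, which encode receptors that bind CD24 on other cells, averaged under 1 RPKM in both gates.

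*Ptprc* (Entrez 19264) lies on the minus strand of chr1:138062859-138175756. RefSeq gives 2 promoter windows. The first (GRCm38.p6, chr1:138175256-138175555, minus strand) is shown as a contrast in base composition to the GC-rich window of *Ngfr*, with GGAAGT, a core bound by ETS factors, in capitals on either strand:
Ptprc: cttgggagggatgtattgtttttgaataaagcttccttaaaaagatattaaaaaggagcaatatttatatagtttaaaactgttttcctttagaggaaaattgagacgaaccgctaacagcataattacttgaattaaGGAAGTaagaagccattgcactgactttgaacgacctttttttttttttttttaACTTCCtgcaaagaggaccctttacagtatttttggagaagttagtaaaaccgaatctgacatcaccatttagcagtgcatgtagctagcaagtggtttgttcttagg
It was 33.7% G or C, above only 2.61% of the windows, and held 2 copies of GGAAGT and no GC box. GGAAGT was present in 23.8% of all windows.

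*Ptprc* was low in every population. EpCAM-negative libraries had 5.29, 7.58 and 2.08 RPKM, and the other 15 ranged from 0.451 to 2.48 RPKM. The EpCAM-negative mean was higher than the CD24hi mean by 2.30 (SE 0.45, adjusted p = 0.000177), the CD24lo mean by 1.71 (SE 0.44, adjusted p = 0.00258) and the alveolar mean by 2.55 (SE 0.47, adjusted p = 0.000123) on the log2 scale. The methods state exclusion of CD45+ cells for alveolar cells only, so the sort set at least the alveolar side of that last difference. Whether the other lung gates also excluded CD45+ cells is not stated. The lowest EpCAM-negative library, from mouse 6, lay below the highest CD24lo library (2.48 RPKM, also mouse 6) and above all CD24hi and alveolar libraries. In the trachea BSCs had 0.999, 1.30 and 1.17 RPKM and non-basal cells 2.46, 1.19 and 1.43 RPKM. These overlapped, with a difference of -0.55 (SE 0.41, adjusted p = 0.293). The 3 lung epithelial gates also overlapped, and none of their 3 pairwise differences was called (adjusted p of 0.316, 0.686 and 0.178). *Ptprc* rested on 29 to 122 reads a library in the 3 lung epithelial gates. The means ran from EpCAM-negative through non-basal, CD24lo, BSC and CD24hi to alveolar cells. In TPM, BSCs (3.28) were above non-basal cells (2.67) and CD24hi (2.22) above CD24lo cells (1.52), which turns both directions. From non-basal cells on, no neighbour in that order was called different from the next (adjusted p of 0.789, 0.458, 0.709 and 0.686), and non-basal cells were below EpCAM-negative cells (-1.55, SE 0.41, adjusted p = 0.00264) with overlapping libraries.

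Leukocyte transcripts moved with *Ptprc* in the EpCAM-negative gate. *Laptm5*, a lysosomal protein of blood cells, was 12.5, 17.4 and 4.89 RPKM in mice 4, 5 and 6, and *Coro1a*, a leukocyte actin-binding protein, was 13.2, 17.8 and 5.20 RPKM. The ratio of *Ptprc* to *Laptm5* kept to 0.422 to 0.434 over these 3 libraries, while *Ptprc* itself spanned 2.08 to 7.58 RPKM. The ratio to *Cd53* was less even in the same libraries, at 0.850 to 1.42, and the ratio to *Laptm5* ran from 0.136 to 0.749 over the airway gates. The summed level of 12 leukocyte markers was 46.5 to 141 RPKM in EpCAM-negative cells and 103.7 to 113 RPKM in alveolar cells, so that the sums overlapped. They were carried in part by *Lcp1*, which averaged 78.3 RPKM in alveolar and 7.14 RPKM in EpCAM-negative cells. Of the 12, 9 were higher and 2 lower in EpCAM-negative than in alveolar cells, with a median of 1.77 against 0.011 over all genes. Of all tested genes 61.9% were called there, and CD45+ cells were stated as excluded from the alveolar side. In CD24lo against alveolar cells, none was higher, 1 was lower and 11 were not called (48.4% of all tested genes called). No leukocyte marker was at 0 reads throughout a population. The part of leukocytes in the *Ptprc* level was not tested. Genes most like *Ptprc* were less alike than for the other 5: *Plek* (r = 0.87), *Laptm5* (r = 0.87), *Stk17b* (r = 0.84), *Bcl2* (r = 0.83) and *Itpripl2* (r = 0.83).

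**Figure D3:**
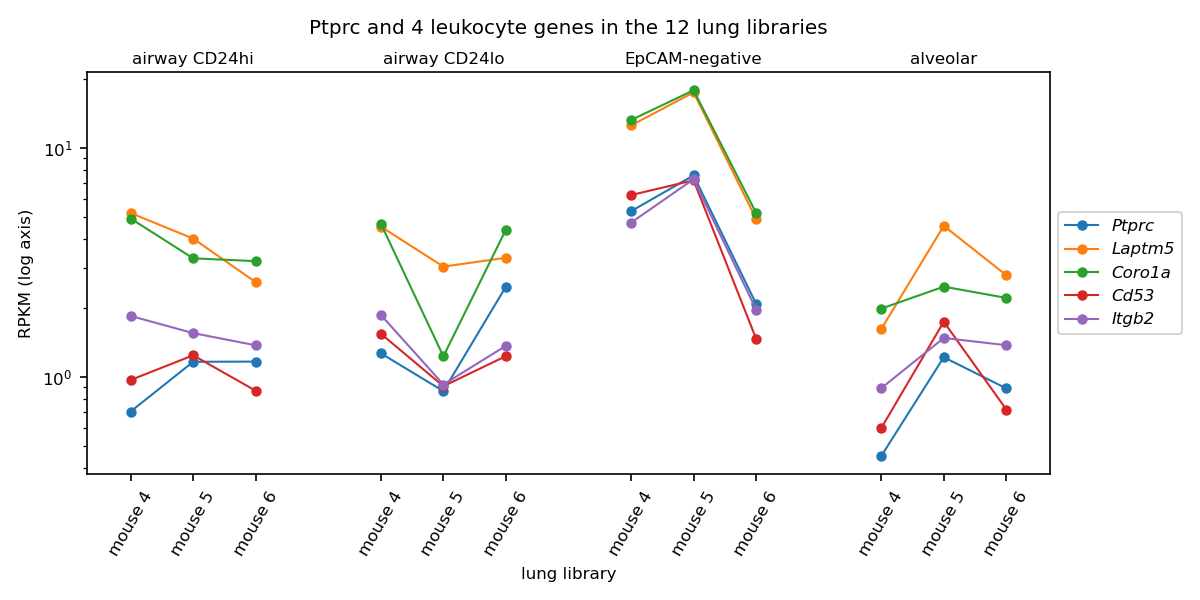
RPKM (log axis) of *Ptprc* and 4 genes of leukocytes, picked after their levels had been seen, in the 12 lung libraries, joined within each gate from mouse 4 to mouse 6. *Ptprc* and the other 4 genes are lowest in mouse 6 within the EpCAM-negative gate, where *Ptprc* falls to 2.08 RPKM.

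*Pecam1* (Entrez 18613) lies on the minus strand of chr11:106654213-106715281. Its transcripts share stretches of up to 186 bases, at 95% identity or more, with those of 125 other genes, so that reads could be shared there. *Pecam1* RNA differed between the organs, which were also dissociated differently. In the trachea it was 0.146, 0.109 and 0.111 RPKM in BSCs and 0.258, 0.117 and 0.335 RPKM in non-basal cells, from 11 to 34 reads. In the lung it was 52.9, 24.9 and 13.3 RPKM in CD24hi cells, 72.7, 25.2 and 23.7 RPKM in CD24lo cells, 56.2, 46.4 and 38.7 RPKM in EpCAM-negative cells and 12.1, 23.2 and 15.2 RPKM in alveolar cells, each for mice 4, 5 and 6. Every lung library was above every tracheal library, and BSCs minus alveolar cells, the lowest lung gate, came to -7.09 on the log2 scale (SE 0.65, adjusted p = 3.34e-08). The lung gates, including the EpCAM+ ones, thus all held *Pecam1* RNA, and the library with the most of it was an EpCAM+ one. Alveolar cells, for which the methods state removal of CD31+ cells, had the lowest lung mean, 35.7% of that of EpCAM-negative cells.

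Within the lung gates the SD of *Pecam1* over mice reached 67.0% of the mean in CD24hi and 68.8% in CD24lo cells. Removal of CD31+ cells was stated for alveolar cells, so the sort set at least the alveolar side of comparisons with them. Whether it was applied to the other lung gates is not stated. EpCAM-negative cells were above alveolar cells without overlap (1.48, SE 0.44, adjusted p = 0.00734). CD24lo cells were also above alveolar cells (1.27, SE 0.44, adjusted p = 0.0243), but not by a called difference without CD24lo replicate 1 (0.54, adjusted p = 0.282), alveolar replicate 1 (1.08, adjusted p = 0.1) or alveolar replicate 3 (1.22, adjusted p = 0.0741), or in a fit of the lung libraries alone (1.27, adjusted p = 0.0529). The CD24hi gate overlapped the alveolar gate (0.85, SE 0.44, adjusted p = 0.102) and was called without CD24hi replicate 3 (1.21, adjusted p = 0.0179) and with library size alone (1.16, adjusted p = 0.036). EpCAM-negative cells were not called different from CD24hi (0.63, SE 0.43, adjusted p = 0.194) or CD24lo cells (0.21, SE 0.43, adjusted p = 0.684), but were called without the library of mouse 4 in CD24hi cells (1.30, adjusted p = 0.0097) or in CD24lo cells (0.95, adjusted p = 0.0461). Between both airway gates the difference was -0.42 (SE 0.43, adjusted p = 0.432). It was -1.09 and called (adjusted p = 0.0325) without CD24hi replicate 1, and 0.31 without CD24lo replicate 1. In the trachea the difference between BSCs and non-basal cells was -0.96 (SE 0.89, adjusted p = 0.401), and with the mouse as a block it was -0.93 and called (adjusted p = 0.0336).

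Several other endothelial genes moved with *Pecam1* library by library. *Cdh5*, the cadherin of endothelial junctions, was 40.4, 19.2 and 10.7 RPKM in CD24hi cells, 49.7, 19.5 and 16.2 RPKM in CD24lo cells, 51.6, 40.5 and 32.2 RPKM in EpCAM-negative cells and 9.59, 20.2 and 13.4 RPKM in alveolar cells of mice 4, 5 and 6. Over the 12 lung libraries *Pecam1* spanned 6.04-fold, whereas the ratio of *Pecam1* to *Cdh5* spanned 1.34-fold, from 1.09 to 1.46. The ratio to *Tek*, another endothelial receptor gene, was less even, from 1.47 in an EpCAM-negative to 3.77 in a CD24hi library. These pairs were chosen after the levels had been seen. The summed level of 10 endothelial markers was 102 to 409 RPKM in CD24hi, 191 to 518 in CD24lo, 295 to 493 in EpCAM-negative and 177 to 255 in alveolar cells. In the trachea it was at most 7.25 RPKM, and 3 of the 10 were at 0 reads in all BSC libraries. Of the 10, 9 were higher in EpCAM-negative than in alveolar cells, and 1, *Esam*, was lower, at 35.2 against 96.9 RPKM. Of all tested genes 61.9% were called in that comparison. In CD24lo against alveolar cells 5 were higher, 1 was lower and 4 were not called (48.4% of all tested genes called). *Kdr*, the VEGF receptor 2, did not keep to the pattern of *Pecam1*: it was 42.2 to 43.7 RPKM in all 3 CD24lo libraries, where *Pecam1* spanned 23.7 to 72.7 RPKM. The part of endothelial cells in the *Pecam1* level was not tested. Genes most like *Pecam1* over the 18 libraries were *Cldn5*, *Flt1*, *Sox18*, *Ptprb* and *Cd93* (each r = 1.00), and the organ difference weighs on these values.

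**Figure D4:**
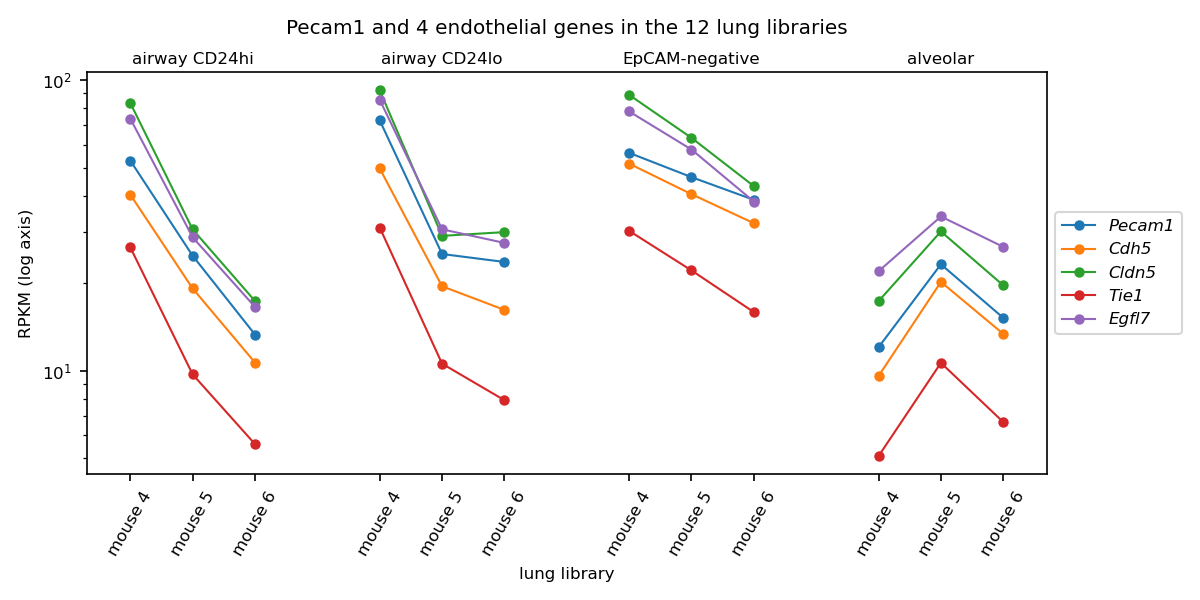
RPKM (log axis) of *Pecam1* and 4 endothelial genes, picked after their levels had been seen, in the 12 lung libraries, joined within each gate from mouse 4 to mouse 6. The 5 lines run nearly parallel, being highest in mouse 4 in both airway gates and the EpCAM-negative gate, and in mouse 5 in the alveolar gate.

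The counts of gate genes called are given beside the share of all tested genes called in the same comparison. Of the 6, 3 were called between BSCs and non-basal cells, where 48.2% of all tested genes were called, and 4 between CD24hi and CD24lo cells, where 55% were. Against alveolar cells 3 were called for the CD24hi gate (background 61.9%) and 5 for the CD24lo gate (background 48.4%). For EpCAM-negative cells 5 were called against CD24hi (background 72.2%), 5 against CD24lo (background 63.4%) and 5 against alveolar cells (background 61.9%). Between organs, 4 were called for BSCs against alveolar cells (background 66.1%), 5 against CD24hi cells (background 72%), 5 against CD24lo cells (background 63.8%) and 6 against EpCAM-negative cells (background 70.3%). For non-basal cells these counts were 4 against alveolar (background 64%), 4 against CD24hi (background 68.4%), 4 against CD24lo (background 53.1%) and 6 against EpCAM-negative cells (background 71.6%). Each of these counts includes any gene that set the gate. The 15 comparisons share libraries and are not independent.

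**Figure D5:**
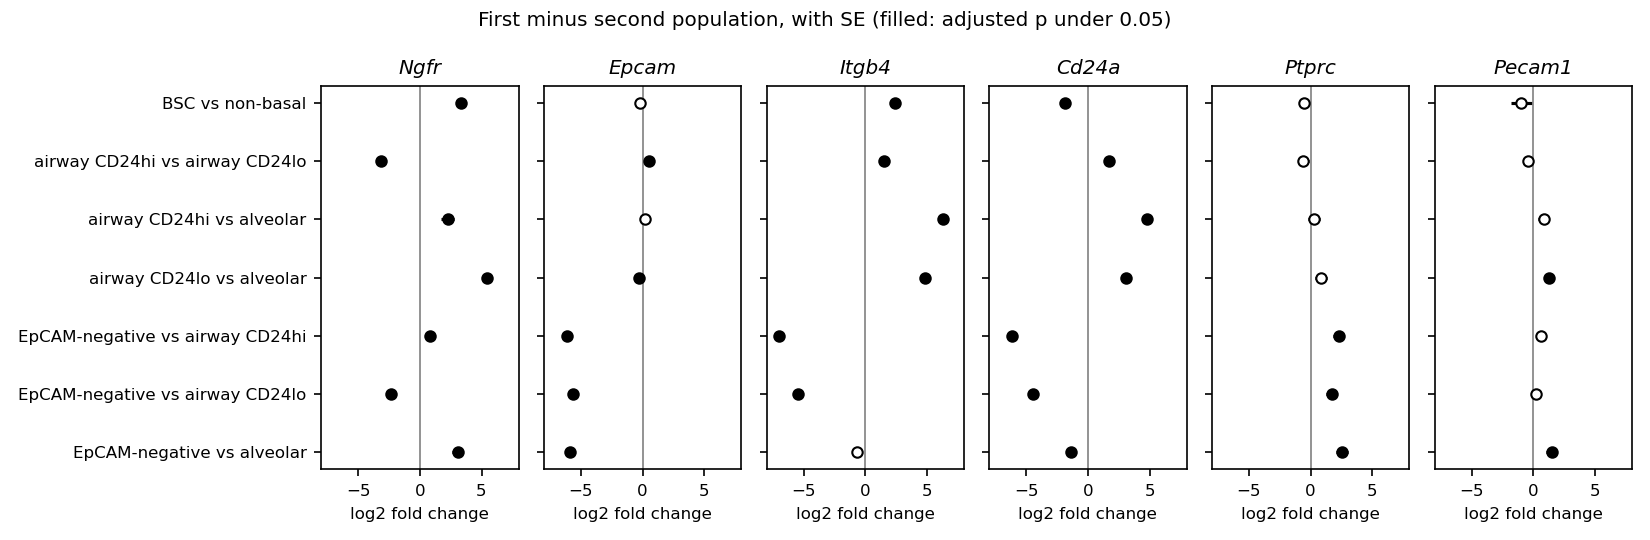
Log2 fold change (first minus second population, with SE) of the 6 gate genes in the 7 comparisons within an organ; filled points are called at an adjusted p under 0.05. *Itgb4* spans from -6.98 (EpCAM-negative against CD24hi) to 6.33 (CD24hi against alveolar), whereas *Epcam* departs from 0 by more than 0.49 only in comparisons with EpCAM-negative cells.

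Genes of 5 further surface proteins, used in the study's sorts of mouse or human cells, were examined as well. Of these, BSCs exceeded non-basal cells in 3 and were below them in 1, where 48.2% of all tested genes were called. *Pdpn* (T1α), another surface mark of BSCs, was 140.5 ± 2.88 RPKM in BSCs and 61.0 ± 3.55 in non-basal cells (1.21, SE 0.14, adjusted p = 1.33e-06). *Pdpn* was also 51.6 ± 3.13 RPKM in EpCAM-negative and 39.7 ± 4.32 in CD24lo cells (SD, n = 3). *Pdpn* was lower in the CD24hi gate by 3.03 on the log2 scale against CD24lo cells (SE 0.16, adjusted p = 3.24e-10), a comparison in which *Ngfr* differed by -3.17. *Itga6* (CD49f) was named above. *Alcam* (CD166) was highest in alveolar cells, at 242.9 ± 2.14 RPKM, and 104.6 to 123 RPKM on average in the tracheal and airway populations. *Pdgfrb* (CD140b), a stromal receptor, was 69.1 RPKM in EpCAM-negative cells and at most 3.66 RPKM on average elsewhere.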

How the data were processed

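RNA of 18 libraries of sorted mouse cells was sequenced. Per the methods and labels, the authors aligned 100 bp single-end reads to mm10 with Rsubread and deposited raw counts per Entrez gene with featureCounts (base calls with bcl2fastq 1.8.4); the strand setting is not given in the sources used here. The deposited counts were used as they stand. Gene symbols came from RefSeq (GRCm38.p6, 25275 of 27179 matched), and exon overlap and transcript matches from GENCODE on the same build. The low-count filter required 3 or more libraries over 0.2 CPM. The main fit was the quasi-likelihood test of edgeR 4.0.16 (R 4.3.3) over all 18 libraries with TMM scaling and no mouse block, with Benjamini-Hochberg adjustment over 17989 genes in each of 15 contrasts. Alternatives were DESeq2 1.42.0, limma 3.58.1 (voom), other scalings and filters, smaller fits, a mouse block, thinned tracheal counts, a length correction, TPM for levels and each library left out.

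On simulated counts for BSC against non-basal cells (17470 genes, 200 changed), the test found 133 of the 200 at a log2 change of 1, with 9 unchanged genes called. It found 198 at a log2 change of 1.5, with 14 unchanged genes called. With 133 of 200 found, changes of the smaller size can be missed. Every gene was drawn with the same fixed dispersion and, unless changed, the same mean in all populations. The SE of the gate genes in this comparison ran from 0.083 (*Epcam*) to 0.89 (*Pecam1*), so the recovery does not describe each of them. The larger size was added after the smaller had been seen.

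Same-numbered libraries of an organ come from the same mouse by the labels. Deviations of such pairs correlated at 0.117 to 0.336 in the trachea and at -0.0593 to 0.278 in the lung. No pair of replicates agreed within sampling noise (lowest chi-square per degree of freedom 3.5). The gene names follow a rule: the 6 gate genes, genes of lists of their ligands, partners and relatives, cell type markers, and the 5 most similar genes of each. Members and lists were chosen with earlier results of these data known, and some ratios after levels were seen. The authors' table of the whole series was not used. Some genes of the lists are not reported here and were left out of the list counts.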

Additional observations from a re-analysis of the deposited data

How the results depend on the processing

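Across 90 results (the 6 genes in 15 comparisons) and 1392 alternative values, 1336 kept their direction and side of the threshold, 21 lost the call, 23 gained it and 12 changed direction; 70 results were the same under every alternative. No count of called genes moved by over 1.5 times. With library size alone, the median of all genes moved by up to 0.38, and *Epcam* changed direction for BSCs against non-basal cells (0.16) and against alveolar cells (0.33). Removing the trend with gene length gave 0.026 for *Epcam* between BSCs and alveolar cells and -0.12 for *Ptprc* between BSCs and CD24hi cells. The other reversals came from leaving out 1 library and concern differences that were not called. Their ranges over the 6 libraries were -0.013 to 0.31 for *Ptprc* in BSCs against CD24hi, -0.70 to 0.10 in BSCs against CD24lo, -0.21 to 0.66 in non-basal against CD24lo and -0.066 to 0.62 in CD24hi against alveolar cells, and, for *Pecam1*, -1.09 to 0.31 in CD24hi against CD24lo and -0.097 to 0.95 in EpCAM-negative against CD24lo cells. The cause was not tested. With the mouse as a replicate block, fitted to 7 comparisons within an organ, *Epcam* (-0.19, adjusted p = 0.00156) and *Pecam1* (-0.93, adjusted p = 0.0336) in BSCs against non-basal cells were called, and no other call changed. The same tracheal libraries without the block, an alternative chosen after seeing the data, gave -0.19 for *Epcam* (adjusted p = 0.0491). The unit changed the order of some levels. In TPM the order of *Epcam* means began with BSCs (287) and CD24hi cells (264), that of *Ptprc* ran from EpCAM-negative cells (12.7) to BSCs (3.28), non-basal (2.67), CD24hi (2.22), CD24lo (1.52) and alveolar cells (1.37), and *Itgb4* was nearly level between EpCAM-negative (0.950) and alveolar cells (0.945). For *Cd24a* and *Ngfr* the highest populations, CD24hi (2417) and BSCs (112), stayed first, and for *Pecam1* CD24hi cells (64.6) passed CD24lo cells (42.8). Few reads limit *Ngfr* in alveolar and *Pecam1* in tracheal cells.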
